A study of Mus musculus with 9 samples.

Results

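The Zfp genes are mouse genes that carry the symbol Zfp with a number, given to proteins with zinc-binding fingers. They were followed here in RNA of extracellular vesicles (EVs), membrane-bound particles shed by cells, here by mouse embryonic fibroblasts (MEFs), a connective tissue cell. A Zfp gene was counted as detected when at least 1 of its probes was well above background, the scanner software's test of a spot against its surroundings, on at least 4 of the 9 arrays. Detected genes were chosen by these measured signals, and each was then represented by its probe with the highest mean signal. The array carried 326 Zfp genes on 470 probes, and 187 of them were detected, out of 14307 genes of any name that passed the same filter. The number of genes is therefore a product of the filter and not a finding.

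EV RNA came from MEFs that were PBS-treated (5 arrays) or control (4 arrays), and the question is which transcripts differed in the vesicles. PBS is phosphate-buffered saline. The cells were a commercial MEF stock, no strain, age or genotype was given, and it is not labelled if PBS-treated MEFs also got electric pulses, which the study used for transfection. No label says that replicates came from separate cultures, so a p-value covers only the spread among these arrays, and that may be technical. Each array is a 1-colour Agilent mouse design, and a level is the log2 signal of a probe minus the 75th percentile of its array, computed from the 8422 probes that all 9 arrays held well above background. Levels of different probes are not comparable, since each probe binds with its own strength. The arrays lay on 2 slides. PBS-treated replicates 1, 2 and 3 shared slide 1 with the first pair of control replicates, and the remaining arrays (PBS-treated 4 and 5, control 3 and 4) were on slide 2.

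Between 16492 and 19233 probes were well above background on PBS-treated arrays, against 12584 to 15554 on control arrays. The part of this gap in the results below was not tested. Of the fibroblast markers, 8 of 11 were above background on all 9 arrays, and their summed level (log2) was 4.68 to 4.78 in PBS-treated and 3.7 to 4.4 in control EVs. Of the leukocyte, epithelial and endothelial markers, 5 of 10, 1 of 5 and 2 of 4 passed the filter. The defining markers Ptprc, Epcam and Cdh5 did not pass it, but 3 leukocyte markers and 1 endothelial marker were above background on all 9 arrays. The summed leukocyte level was 0.16 to 1.05 in PBS-treated and 1.12 to 1.69 in control EVs, the epithelial level -8.24 to -4.65 and -6.88 to -3.7, and the endothelial level -3.5 to -2.91 and -2.11 to -1.39, with the PBS-treated range first in each case. The part of these cells in the results was not tested.

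Most Zfp proteins bind DNA through a row of fingers, each a short loop in which a pair of cysteines and a pair of histidines hold a zinc ion. Many of them also carry a KRAB box, which recruits the co-repressor TRIM28 and silences transposable elements and imprinted genes. A small number do other work. The Zfp36 family has fingers with 3 cysteines and 1 histidine, binds AU-rich elements in mRNAs and brings in the enzymes that shorten the poly(A) tail. Other Zfp proteins act in splicing, ribosome assembly, chromosome segregation and SUMO conjugation. Genes of the KRAB type lie in dense clusters of recent duplicates, and their shared finger sequence is a concern for any probe.

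A probe that lies in the finger-coding part of its transcript can be recognised by its letters. Each 60-base probe was translated in 3 frames and searched for the cysteine part of a finger (a pair of cysteine codons with 2 codons between them, followed 4 codons later by phenylalanine) or for the histidine part (a phenylalanine and a leucine codon in fixed places before 2 histidine codons). Such a pattern was found in 14 of the 187 probes (7.49%) and in 52 of 14120 probes of other genes (0.368%). Of the 14 genes, 4 were higher and 2 lower in PBS-treated EVs by the test below (31.5% and 20.7% of all genes tested). The probes of 4 of those 6 genes, and that of Zfp809, are shown so that the letters the signal rests on can be seen, with capitals for the cysteine or histidine codons of the pattern. Positions are those of the array annotation on mm9.

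Zfp26 probe, chr9:20242773-20242832, reverse strand: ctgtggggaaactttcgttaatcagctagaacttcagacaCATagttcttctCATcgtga
Zfp442 probe, chr2:150234210-150234269, reverse strand: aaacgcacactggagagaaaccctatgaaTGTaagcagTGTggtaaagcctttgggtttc
Zfp551 probe, chr7:13000911-13000970, reverse strand: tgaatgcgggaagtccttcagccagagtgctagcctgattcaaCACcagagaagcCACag
Zfp114 probe, chr7:24966933-24966992, forward strand: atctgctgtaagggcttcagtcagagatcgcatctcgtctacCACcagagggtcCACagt
Zfp809 probe, chr9:22043637-22043696, forward strand: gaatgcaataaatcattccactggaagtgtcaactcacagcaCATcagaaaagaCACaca

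Zfp26 and Zfp442 were higher, and Zfp551 and Zfp114 lower, in PBS-treated EVs. The call of Zfp114 was lost without PBS-treated replicate 2 or 3 or control replicate 2. Zfp809, the KRAB protein that silences murine leukemia viruses, read -5.27, -5.41, -5.19, -5.01 and -6.53 on the PBS-treated arrays, against -5.94, -5.71, -5.66 and -6.22 on the control arrays. Its groups overlap, its fitted difference was 0.40 ± 0.31 (SE), and it did not pass the test (limma, adjusted p = 0.301). No control array held it well above background. In all, 10 of the 187 probes share a stretch of at least 20 bases with a probe named for another gene. Among them the probes of Zfp408, Zfp442, Zfp534 and Zfp663 each share letters with probes of several other gene names. Values of these genes are uncertain for that reason.

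The detected Zfp genes were as often called as other genes, and they moved both ways. Differences are log2 levels of PBS-treated minus control EVs, fitted with limma over all 14307 genes, and a gene is called when its Benjamini-Hochberg adjusted p over all of them is under 0.05. Of the 187 genes, 101 were called (54.0%), close to the 52.2% of all genes tested. They comprised 47 that were higher (25.1%, against 31.5% of all genes) and 54 that were lower (28.9%, against 20.7% of all genes). At 2-fold or more, 26 of the 187 were higher and 38 lower, against 2923 and 2070 of all 14307 genes. The median difference was -0.01 over the Zfp genes and -0.02 over all genes. In array data of bulk EV RNA, more vesicles that carry a transcript and more copies per vesicle cannot be told apart.

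**Figure D1:**
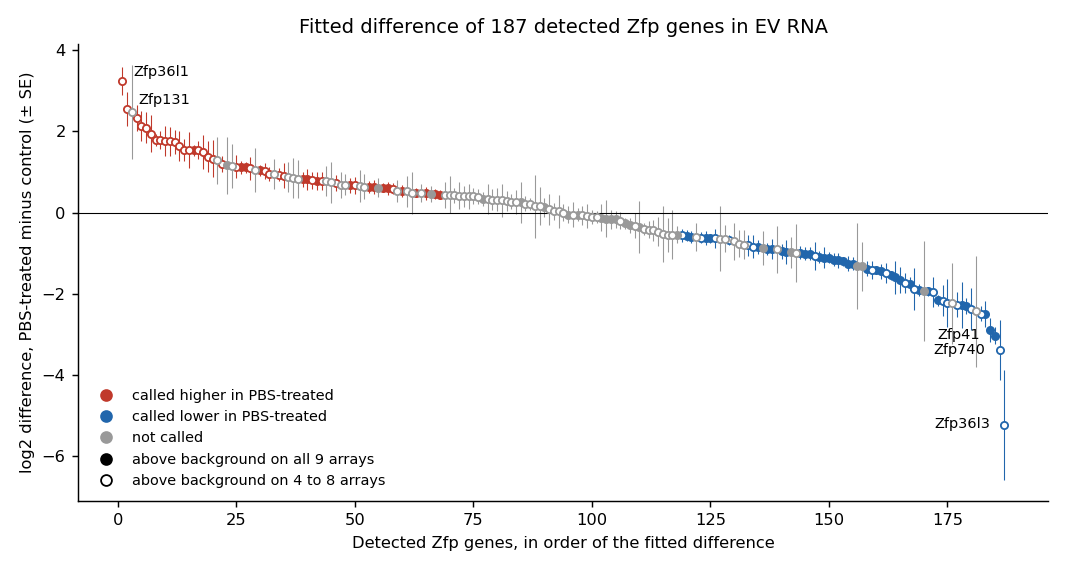
Fitted log2 difference (PBS-treated minus control, vertical axis, bars ± SE) of the 187 detected Zfp genes in order of size. Colours give the call, and filled points are genes well above background on all 9 arrays. Values run between 3.24 for Zfp36l1 and -5.23 for Zfp36l3, with 47 genes called higher and 54 called lower on this scale (120 and 11 with spike-in scaling, 9 and 96 after normexp background correction with the same percentile).

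The direction of the family as a whole depended on how the arrays were scaled. On the main scale 46.5% of the calls were higher in PBS-treated EVs. Scaling to the 75th percentile over all probes gave 38 higher and 18 lower (67.9% higher), and scaling to 7 spike-in probes, RNAs added before labelling, gave 120 and 11 (91.6%). Background correction with normexp and the main percentile gave 9 and 96 (8.57%), normexp with quantile normalization 29 and 32 (47.5%), and in the deposited value table both counts were 32. The median of all genes moved with them, at 0.39, 1.26, -0.51, 0.10 and 0.10 under these alternatives in that order, and the median of the Zfp genes was 0.39, 1.27, -0.68, 0.09 and 0.09. No statement on the family as a group is therefore made beyond these counts.

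**Figure D2:**
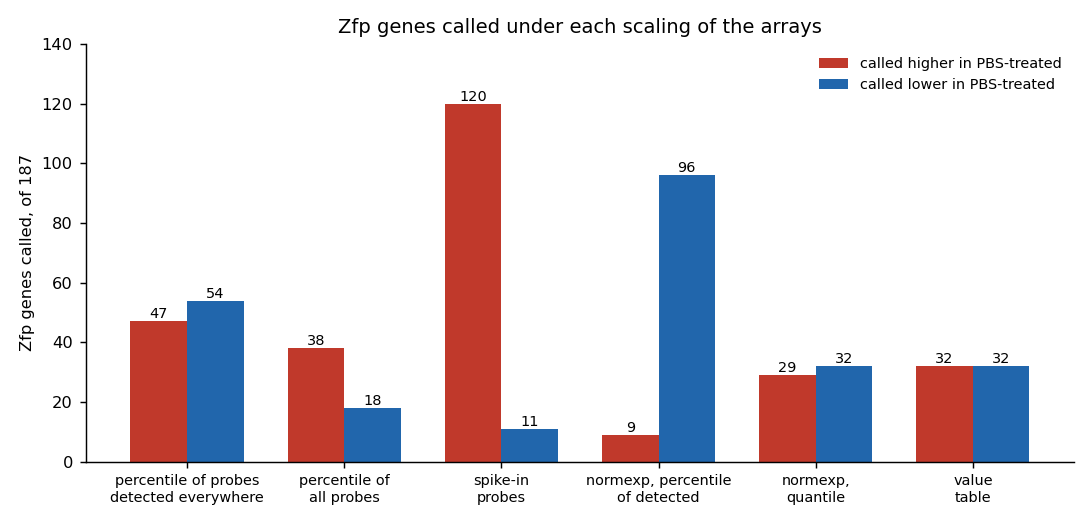
Number of the 187 detected Zfp genes called higher and lower in PBS-treated EVs (limma, adjusted p under 0.05) under 6 scalings of the same arrays. The bars read 47 and 54 on the main scale, 120 and 11 with spike-in scaling, and 9 and 96 with normexp and the main percentile.

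Some genes held their call across these scalings. In each of the 6 scalings, 7 Zfp genes (3.74%, against 10.6% of all genes tested) were called higher in PBS-treated EVs: Zfp36l1, Zfp131, Zfp207, Zfp322a, Zfp442, Zfp639 and Zfp706. In each of them 11 (5.88%, against 4.82% of all genes tested) were called lower: Zfp36l3, Zfp41, Zfp113, Zfp280b, Zfp358, Zfp507, Zfp518b, Zfp568, Zfp652, Zfp704 and Zfp740. Of these, Zfp322a, Zfp358, Zfp442 and Zfp652 were named after their values were seen. Zfp358 read -1.19, -1.22, -1.30, -0.98 and -1.15 in PBS-treated EVs, against 0.71, 0.65, 0.82 and 0.91 in control EVs, a difference of -1.94 ± 0.11 (SE, 3.84-fold lower). Zfp652 read -2.57, -2.60, -2.60, -2.77 and -2.62, against -0.29, -0.23, -0.73 and -0.65, a difference of -2.16 ± 0.14 (SE, 4.47-fold lower). Replicates of both lie close together and the groups are far apart. Zfp442 read -2.15, -2.21, -2.21, -2.24 and -2.03, against -3.61, -3.51, -3.98 and -3.71, a difference of 1.53 ± 0.13 (SE, 2.89-fold), on the finger-coding probe shown above. Of the 101 calls, 12 turned into a call of the opposite direction under at least 1 scaling: 3 genes that were higher and 9 that were lower.

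The Zfp36 family held both the largest rise and the largest fall. Zfp36l1 (chr12:81209022-81209081), which binds AU-rich elements and promotes mRNA decay, read -0.26, -0.13, -1.44, -0.44 and -0.24 on the PBS-treated arrays, against -3.24, -3.26, -4.24 and -4.22 on the control arrays. All 5 PBS-treated arrays lie above all 4 control arrays, and PBS-treated replicate 3 is the lowest of its group. Its level averaged -0.50 ± 0.54 in PBS-treated (SD, n = 5) and -3.74 ± 0.56 in control EVs (SD, n = 4), a difference of 3.24 ± 0.35 (SE) or 9.43-fold (limma, adjusted p = 9.96e-05). Over the other 5 scalings this difference was 2.03 to 4.51.

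Zfp36l2, a second member with the same activity, differed less. It read 1.48, 1.38, 1.60, 1.40 and 1.30 in PBS-treated EVs, against 1.32, 1.31, 0.52 and 0.73 in control EVs. The groups are apart on each slide but overlap by a little in the whole set, and the difference of 0.46 ± 0.19 (SE) did not pass the test (limma, adjusted p = 0.0731). Zfp36 itself, tristetraprolin, was well above background on no array. Its probe is on the design, so it is not among the 187 genes.

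Zfp36l3 (chrX:51077228-51077287), a rodent-specific member known from placenta and yolk sac, went the other way and split by slide. It read -4.90, -4.38 and -6.09 on the PBS-treated arrays of slide 1 and -0.72 and -0.83 on those of slide 2. Control arrays read 0.22 and 0.26 on slide 1 and 3.54 and 3.36 on slide 2. Slide 2 reads higher in both groups, yet the groups are apart on each slide. The difference was -5.23 ± 1.36 (SE, limma, adjusted p = 0.0110), 37.5-fold lower in PBS-treated EVs, and -5.36 on slide 1 alone and -4.23 on slide 2 alone. The difference between the slides was not tested. The difference was -4.55 without PBS-treated replicate 3, -5.89 without replicate 4 and -5.87 without replicate 5, each still called. Without control replicates 3 and 4 together the call was lost, at -3.63.

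**Figure D3:**
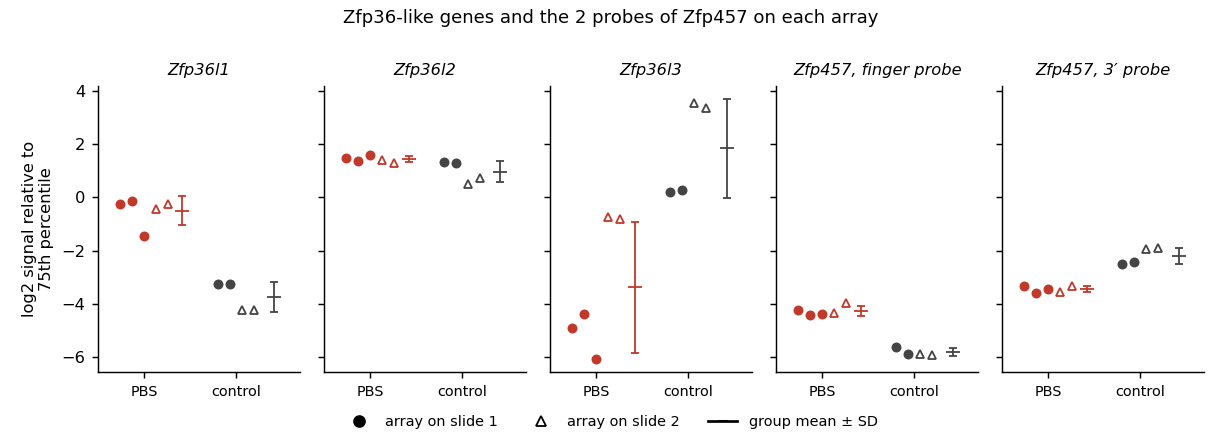
Level of Zfp36l1, Zfp36l2, Zfp36l3 and of the 2 probes of Zfp457 on each array (log2 signal relative to the 75th percentile), with filled circles for slide 1, open triangles for slide 2 and bars for the group mean ± SD. Zfp36l1 is higher and Zfp36l3 lower in PBS-treated EVs on both slides, and the 2 probes of Zfp457 run in opposite directions (1.56 and -1.26). The rising Zfp457 probe was well above background on no control array and passed the filter through PBS-treated arrays alone.

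Beside Zfp36l1, the largest rises among genes whose groups did not overlap were those of Zfp131, Zfp367, Zfp207, Zfp386, Zfp275, Zfp26, Zfp639, Zfp688 and Zfp868. Zfp131, a factor with a BTB domain, read -2.67, -2.69, -2.55, -2.74 and -2.77 in PBS-treated EVs, against -4.27, -4.48, -5.78 and -6.41 in control EVs. The PBS-treated arrays lie within a narrow band and the control arrays of slide 2 are the lowest. Its difference was 2.55 ± 0.42 (SE, 5.86-fold, limma, adjusted p = 0.00109). Zfp207 (chr11:80209089-80209148), a microtubule-binding protein that brings BUB3 to kinetochores, read -1.37, -1.33, -1.87, -1.17 and -1.04, against -2.71, -2.88, -4.03 and -4.34. Again the control arrays of slide 2 are the lowest, and the difference was 2.13 ± 0.37 (SE, 4.39-fold, limma, adjusted p = 0.00135). Zfp131 and Zfp207 were well above background on 2 and 3 of the 4 control arrays, so their control levels lie partly near background.

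Zfp367 read -2.90, -3.00, -3.52, -3.06 and -3.14 in PBS-treated EVs, against -5.06, -5.44, -6.47 and -4.86 in control EVs, a difference of 2.33 ± 0.32 (SE). Zfp386 read -2.91, -3.05, -2.85, -3.07 and -3.54, against -4.44, -4.38, -6.11 and -5.78, a difference of 2.09 ± 0.39 (SE). Both were apart on every array. The differences of Zfp275, Zfp639 and Zfp688 were 1.94, 1.78 and 1.76, and their adjusted p-values (limma) were 0.00622, 0.000242 and 0.00454. Zfp26 and Zfp868 were well above background on no control array, so their folds are bounds. Both passed the filter through PBS-treated arrays alone, which favours a rise, so their calls carry no weight as support. Zfp26 averaged -4.65 ± 0.20 in PBS-treated (SD, n = 5) and -6.44 ± 0.20 in control EVs (SD, n = 4), at least 1.86-fold higher. Zfp868 averaged -4.75 ± 0.21 and -6.50 ± 0.85, at least 1.78-fold higher. With normexp and the main percentile both turned to -0.28, with the other 4 scalings both stayed positive.

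Of the 10 largest falls, 5 lay in genes well above background on every array (Zfp41, Zfp280b, Zfp352, Zfp518b and Zfp568). Zfp41 (chr15:75455531-75455590) read -4.60, -4.50, -3.88, -4.25 and -4.01 in PBS-treated EVs, against -0.96, -0.88, -1.63 and -1.44 in control EVs, a difference of -3.03 ± 0.22 (SE, 8.14-fold lower, limma, adjusted p = 1.56e-05). Zfp280b (chr10:75505273-75505331) read -4.54, -4.63, -5.09, -4.92 and -4.93, against -1.38, -1.37, -2.41 and -2.53, a difference of -2.90 ± 0.29 (SE, 7.46-fold lower). In both the groups are more than 2 log2 units apart. Zfp568, the KRAB protein that represses a placental Igf2 transcript, read -4.93, -4.80, -5.38, -4.44 and -4.88, against -2.70, -2.56, -2.69 and -2.38. No slide pattern is seen in it, and its difference was -2.30 ± 0.19 (SE, 4.94-fold lower, limma, adjusted p = 2.65e-05).

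Zfp740 and Zfp352 shared the slide pattern of Zfp36l3. Zfp740 read -7.28, -7.15, -7.89, -5.77 and -5.80 in PBS-treated EVs, against -4.56, -4.71, -2.02 and -2.26 in control EVs. Zfp352, a gene without introns known from the 2-cell embryo, read -2.90, -3.09, -2.95, -1.61 and -1.44, against -1.05, -1.06, 0.90 and 0.71. Slide 2 is the higher one in both groups of both genes. Their differences were -3.39 ± 0.73 and -2.28 ± 0.57 (SE), and the groups are apart within each slide. The other falls of this set were Zfp518b at -2.50, Zfp113 at -2.49, Zfp623 at -2.37 and Zfp704 at -2.27, each with groups that do not overlap. Zfp113, Zfp623, Zfp704 and Zfp740 were well above background on 2, 2, 3 and 1 of the 5 PBS-treated arrays, so their PBS-treated levels lie near background. Zfp623 was above it on 2 control arrays. Its call was lost with spike-in scaling (-1.09), with normexp and quantiles (-0.35) and in the value table (-0.33).

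**Figure D4:**
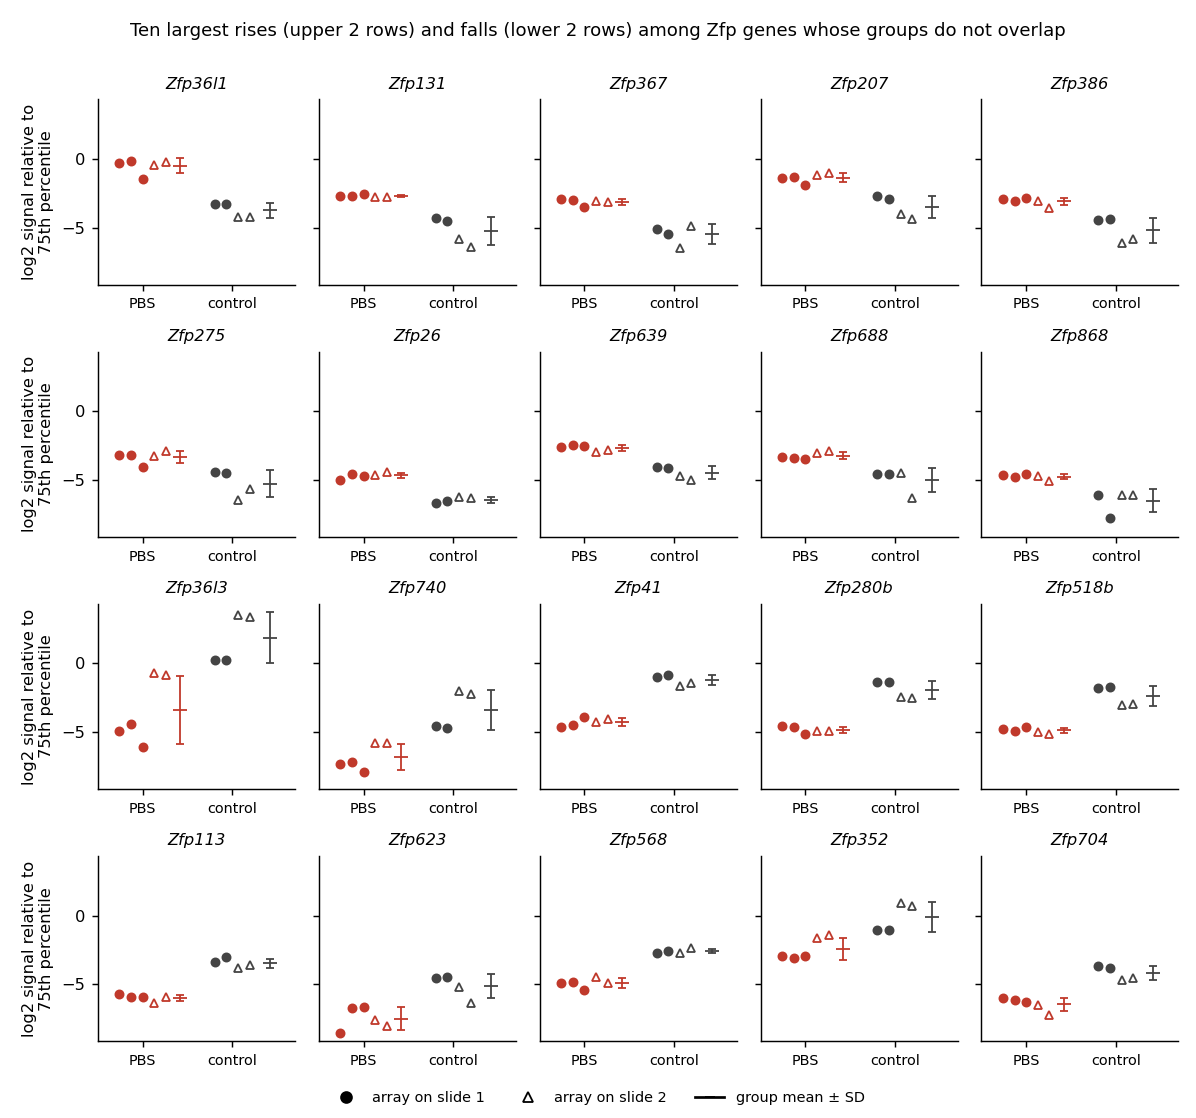
Level of the 10 Zfp genes with the largest rises (upper 2 rows) and the 10 with the largest falls (lower 2 rows) among called genes whose groups do not overlap, on each array (log2 signal relative to the 75th percentile). PBS-treated arrays stand left of control arrays, circles are slide 1, triangles slide 2, and bars the group mean ± SD. Zfp36l1 read -1.44 to -0.13 in PBS-treated and -4.24 to -3.24 in control EVs, and Zfp36l3, Zfp740 and Zfp352 read higher on slide 2 in both groups.

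Groups that do not overlap were common among all genes. They were found for 44 Zfp genes in the higher direction (23.5%, against 29.4% of all genes tested) and for 50 in the lower direction (26.7%, against 17.6% of all genes tested). Of the 101 called genes, 10 had overlapping groups, and 3 genes without a call had groups apart. All 101 had the same sign on slide 1 and on slide 2. They were called from the arrays of both slides together, which favours a shared sign, so this count carries no weight as support. Over the 187 genes 157 did (84.0%, against 84.1% of all genes), and the Spearman correlation between the 2 slides was 0.80 (0.83 over all 14307 genes). Points on both axes come from the same probes and the same scaling, so this is a description.

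**Figure D5:**
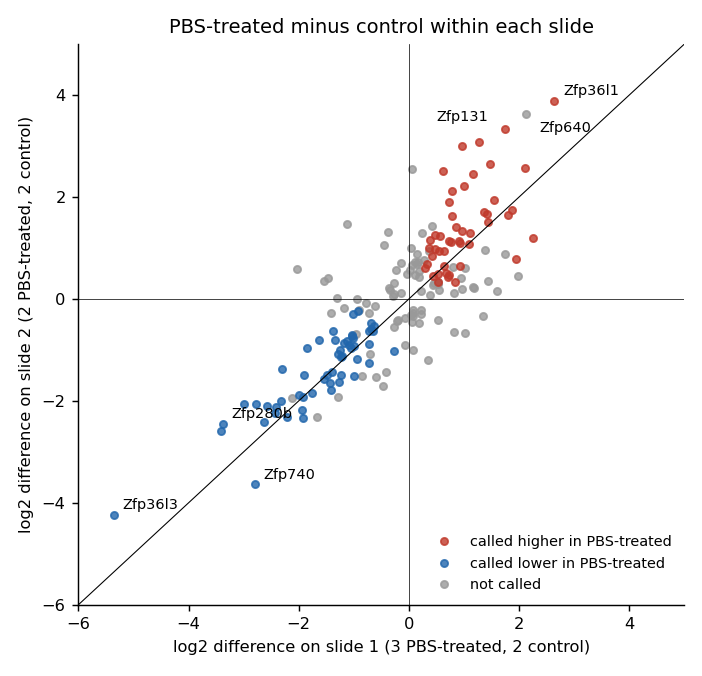
Log2 difference (PBS-treated minus control) of each detected Zfp gene on slide 1 (3 and 2 arrays, horizontal axis) and on slide 2 (2 and 2 arrays, vertical axis), with the diagonal as equal values. All 101 called genes lie in the lower left or upper right quadrant, which a call from both slides together favours, and Zfp640 was not called.

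In Zfp640, which was well above background on no control array, slide 2 read higher than slide 1 in both groups, by 3.91 in PBS-treated and 2.41 in control EVs. It read -5.85, -6.08 and -5.55 on the PBS-treated arrays of slide 1 and -1.90 and -1.94 on those of slide 2, against -7.98 and -7.92 on slide 1 and -6.27 and -4.81 on slide 2 for the control arrays. The groups are apart on each slide and overlap in the whole set. Its difference of 2.48 ± 1.16 (SE) was not called (limma, adjusted p = 0.106). Zfp640 was named after its values were seen. A rise of more than 2 log2 units on slide 2 in both groups was found in 6 of the 187 genes (3.21%), namely Zfp36l3, Zfp111, Zfp423, Zfp574, Zfp640 and Zfp775, against 12.4% of all genes.

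Zfp genes with roles in RNA, ribosomes, ubiquitin or SUMO were followed as a list of 19, of which 10 were detected, 5 called higher and 2 lower. Of all genes tested, 31.5% were higher and 20.7% lower. The median difference of the 10 was 0.53, against -0.02 over all genes. Zfp706, a short protein known from the control of embryonic stem cell self-renewal, read -0.19, -0.24, -0.21, 0.08 and 0.02 in PBS-treated EVs, against -1.16, -0.99, -1.44 and -1.31 in control EVs. It was higher on every array, by 1.11 ± 0.14 (SE, 2.16-fold, limma, adjusted p = 0.0002). Zfp593, whose yeast counterpart serves export of the large ribosomal subunit, was higher by 1.49 ± 0.41, and Zfp451, a SUMO ligase, by 1.02 ± 0.19. Zfp326, a splicing-linked factor of the DBIRD complex, was higher by 0.91 ± 0.31 (limma, adjusted p = 0.0367). That call was lost in 6 of the 9 fits that each left out 1 array (each PBS-treated array or control replicate 3), at 0.87 to 0.99. Zfp593, Zfp451 and Zfp326 were well above background on 2, 1 and 2 of the 4 control arrays.

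The 2 members of this list that fell were Zfp106 and Zfp622. Zfp106, an RNA-binding protein needed by motor neurons, read -3.44, -3.33, -3.41, -3.10 and -2.94 in PBS-treated EVs, against -1.69, -1.82, -2.40 and -2.04 in control EVs, a difference of -1.26 ± 0.18 (SE, 2.39-fold lower). Zfp622, which helps to mature the large ribosomal subunit, read 0.91, 0.96, 1.14, 0.77 and 0.84, against 1.23, 1.30, 1.83 and 1.83. Its groups are apart, at -0.63 ± 0.17 (SE, limma, adjusted p = 0.0138). With spike-in scaling Zfp622 turned to 0.65 and was called higher, and Zfp106 to 0.02. Zfp330, a nucleolar protein, Zfp385a and Zfp830 were not called, at 0.13, -1.33 and 0.15.

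A list of 39 transcription and chromatin regulators was drawn up to stand outside the KRAB type. KRAB boxes were not searched for, so a listed gene may carry one. Of the 39, 30 were detected, 8 called higher and 11 lower (31.5% and 20.7% of all genes tested), with a median difference of -0.31. The Zfp280 genes went different ways. Zfp280c read -4.36, -4.07, -4.30, -4.37 and -4.48 in PBS-treated EVs, against -5.51, -6.59, -6.69 and -5.45 in control EVs, a difference of 1.74 ± 0.29 (SE, limma, adjusted p = 0.00113), while Zfp280b fell by 2.90. Zfp280d was not called, at 0.27 ± 0.19. With normexp and the main percentile Zfp280c turned to -0.22, and Zfp280b kept its sign in all 6 scalings.

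Zfp592 and Zfp687, which form a complex with the chromatin reader ZMYND8, both fell. Zfp592 read -3.29, -3.45, -3.48, -2.81 and -2.94 in PBS-treated EVs, against -1.46, -1.54, -1.49 and -1.26 in control EVs, a difference of -1.75 ± 0.17 (SE, 3.37-fold lower). Zfp687 read -4.22, -4.06, -4.06, -4.45 and -4.26, against -2.84, -2.82, -3.34 and -3.22, a difference of -1.16 ± 0.16 (SE, 2.23-fold lower). In neither do the groups overlap, and with spike-in scaling Zfp687 turned to 0.12. Also lower were Zfp217, an amplified oncogene in human breast cancer, at -2.17, and Zfp507 at -1.91, Zfp609, a partner of the cohesin loader NIPBL, at -1.60, Zfp362 at -1.41, Zfp462 at -0.96, Zfp238 (Zbtb18 in current naming) at -0.84 and Zfp521, a regulator of EBF1, at -0.57. The signs of Zfp462, Zfp238 and Zfp521 turned with spike-in scaling. The call of Zfp238 was lost without PBS-treated replicate 2, 4 or 5 or control replicate 1 or 2, at -0.86 to -0.67.

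On the higher side of this list stood Zfp110, an interactor of the neurotrophin receptor p75, at 1.64, Zfp143, an activator at many promoters and chromatin loop ends, at 1.09, Zfp410, the activator of Chd4, at 0.94, Zfp703 at 0.82, Zfp281 at 0.82 and Zfp64 at 0.78. Zfp143 was well above background on no control array and was at least 1.09-fold higher. It passed the filter through PBS-treated arrays alone, so its call carries no weight as support. With normexp and the main percentile Zfp110, Zfp143 and Zfp410 turned negative. The call of Zfp281, whose groups overlap, was lost without any 1 of 6 arrays (PBS-treated 1, 2, 4 and 5, control 3 and 4), at 0.74 to 0.78, and that of Zfp64 without control replicate 4, at 0.67. Zfp703 and its relative Zfp503 differed in result. Zfp703 read 1.05, 1.16, 1.41, 0.95 and 0.88 in PBS-treated EVs, against 0.52, 0.61, -0.06 and 0.01 in control EVs, while Zfp503 read -2.78, -2.65, -2.58, -3.07 and -3.16, against -2.79, -2.71, -2.87 and -2.82. The groups are apart in Zfp703 and overlap in Zfp503, whose difference was -0.05 ± 0.15 (SE).

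The remaining 11 regulators were not called. Zfp423, a marker of adipocyte precursors, read -8.47, -7.42, -7.33, -5.65 and -4.88 in PBS-treated EVs, against -5.59, -6.54, -2.91 and -3.01 in control EVs, and its difference of -2.24 had an adjusted p of 0.0913 (limma). Its arrays of slide 2 are the highest in both groups. Zfp644, a partner of the methyltransferases G9a and GLP, was at 0.77 with groups apart (adjusted p = 0.112, limma). Zfp148, Zfp161 (Zbtb14), Zfp277, Zfp335, Zfp395, Zfp467 and Zfp219 lay between -0.99 and 0.21.

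Of 14 KRAB genes with a known role, 9 were detected, 2 called higher and 3 lower (31.5% and 20.7% of all genes tested), with a median difference of 0.15. The 2 that were higher are Zfp263 at 0.49 ± 0.12 (SE) and Zfp354a at 0.59 ± 0.14 (SE). Zfp354a was not above background on any control array and was at least 1.02-fold higher. Its call rests on a filter passed through PBS-treated arrays alone and carries no weight as support. Zfp263 read -2.59, -2.42, -2.15, -2.30 and -2.26 in PBS-treated EVs, against -2.94, -2.87, -2.82 and -2.69 in control EVs. These groups are apart by little. Beside Zfp568, Zfp369 and Zfp30 were lower. Zfp30 read -4.29, -4.33, -4.46, -4.31 and -4.50, against -3.73, -3.56, -3.58 and -3.97, a difference of -0.67 ± 0.12 (SE), and it turned to 0.61 with spike-in scaling. Zfp369 was at -1.89 ± 0.52 (SE) with overlapping groups. Zfp445, which maintains imprints, was at -0.43, Zfp90 at 0.44 and Zfp354c at 0.15, none of them called. One control array set Zfp354c apart, since control replicate 1 read -0.27 and the other 3 read -4.30 to -3.48.

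Outside these role lists lay 135 of the detected genes. Of them 31 were called higher (23.0%, against 31.5% of all genes tested) and 37 lower (27.4%, against 20.7%). Their median difference was 0.03, with a range of -3.39 to 2.48.

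How often a gene was detected differed between arrays and was lowest on the control arrays of slide 2. Of the 187 probes, 149 to 182 were well above background on a PBS-treated array, against 157 on control replicates 1 and 2, 89 on control replicate 3 and 90 on control replicate 4. All 9 arrays detected 73 genes. A further 36 were seen on all 5 PBS-treated arrays and, among control arrays, on replicates 1 and 2 only. No control array detected 21 genes, of which 6 were called higher. The filter favours a rise in genes that passed through PBS-treated arrays alone, so those 21 carry no weight as a count. Their differences ran between -0.61 and 2.48, and 15 of them were not called. Within the 73 genes seen on every array, 17 were higher (23.3%, against 31.3% of the 7169 such genes of any name) and 35 lower (47.9%, against 27.6%), with a median difference of -0.64 against -0.07. The median of the 73 was -0.23 with the percentile over all probes, -0.84 with normexp and the main percentile, -0.44 with normexp and quantiles and -0.39 in the value table, but 0.64 with spike-in scaling, where 36 were higher and 7 lower.

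At the edge of the rule, 21 genes were well above background on exactly 4 arrays and 20 on exactly 3. Just inside, Zfp128, Zfp143 and Zfp160 averaged -6.24, -5.46 and -6.18 in PBS-treated EVs, against -5.91, -6.55 and -6.66 in control EVs. Just outside, Zfp51, Zfp54 and Zfp108 averaged -5.05, -6.47 and -6.37, against -6.22, -6.45 and -6.46. Of the 326 Zfp genes, 84 were detected on no array.

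Some 35 genes had at least 2 probes that passed the filter, and the probes had the same sign in 25 of them and both signs in 10. In Zfp457 they were called in opposite directions. The probe at position 1889 of the transcript (chr13:67393554-67393613) holds the cysteine part of a finger, in capitals here, and rose.

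Zfp457 finger probe, reverse strand: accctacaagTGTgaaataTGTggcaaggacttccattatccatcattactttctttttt

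It read -4.24, -4.43, -4.37, -4.36 and -3.97 in PBS-treated EVs, against -5.61, -5.88, -5.90 and -5.92 in control EVs, none of which were well above background. The fitted difference was 1.56 ± 0.14 (SE). This probe passed the filter through PBS-treated arrays alone, which favours a rise, so its call carries no weight as support. The brighter probe at position 1987 (chr13:67393456-67393515), which the rule chose, read -3.32, -3.60, -3.45, -3.55 and -3.34, against -2.49, -2.42, -1.96 and -1.91, a difference of -1.26 ± 0.16 (SE). Both sets of groups are apart. The array annotation lists accessions of Ap1s3 and a pseudogene beside Zfp457 for the brighter probe only, so its signal cannot be given to Zfp457 alone.

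Chromosome 7 held 50 of the 187 genes, more than any other. On it 6 were higher and 18 lower, with a median difference of -0.38, where of all 1066 genes of that chromosome 264 were higher and 245 lower, with a median of -0.19. Elsewhere 41 were higher and 36 lower of 137. Chromosome 17, with 14 genes, had 2 called, both higher, and the differences there ran between -0.65 and 0.64. Of all 739 genes of that chromosome, 210 were higher and 149 lower. Neighbouring Zfp genes are often recent duplicates, so genes of one chromosome are not independent, and no test was made.

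Promoters were read where RefSeq gives a window of 250 bases before to 50 after a start (GRCm38.p6), which was so for 143 of the 187 genes, with any window of a gene counted. The CCAAT box, the letters CCAAT on either strand, is bound by the factor NF-Y. It was present in 27 of 39 genes that were higher (69.2%), in 12 of 36 that were lower (33.3%) and in 30 of 68 that were not called (44.1%). Among all genes tested the shares were 44.6% of those higher, 40.5% of those lower and 43.3% of the rest, and 41.1% of all genes with a window held it. The TATA box, TATAAA on either strand, was present in 8.39% of the Zfp genes and 15.7% of all genes with a window, and GCCATNTT, a core bound by YY1, in 17.5% and 6.96%. Genes that passed the array filter are nearer to the Zfp genes in TATAAA, at 8.50% to 9.94% by call, and hold GCCATNTT in 11.0% of those higher, 10.1% of those lower and 10.5% of those not called. The Zfp genes hold GCCATNTT in 9 of 39 that were higher (23.1%), 4 of 36 that were lower (11.1%) and 12 of 68 not called (17.6%). A match is a description of the letters and not a binding site. The 250 bases before the start of 2 genes that rose and 1 that fell are printed to show windows with and without the box, with CCAAT (or ATTGG on the other strand) and TATAAA in capitals.

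Zfp36l1, chr12:80113014-80113263, minus strand: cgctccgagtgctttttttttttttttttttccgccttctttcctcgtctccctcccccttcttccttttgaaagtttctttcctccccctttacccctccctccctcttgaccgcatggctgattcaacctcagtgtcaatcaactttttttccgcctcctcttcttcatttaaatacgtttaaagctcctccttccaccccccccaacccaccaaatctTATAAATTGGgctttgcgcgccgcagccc
Zfp367, chr13:64153200-64153449, minus strand: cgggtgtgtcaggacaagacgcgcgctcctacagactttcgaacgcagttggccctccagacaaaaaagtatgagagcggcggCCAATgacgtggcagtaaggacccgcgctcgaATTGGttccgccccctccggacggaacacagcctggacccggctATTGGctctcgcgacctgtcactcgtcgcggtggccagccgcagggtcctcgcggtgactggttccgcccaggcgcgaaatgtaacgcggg
Zfp113, chr5:138155745-138155994, minus strand: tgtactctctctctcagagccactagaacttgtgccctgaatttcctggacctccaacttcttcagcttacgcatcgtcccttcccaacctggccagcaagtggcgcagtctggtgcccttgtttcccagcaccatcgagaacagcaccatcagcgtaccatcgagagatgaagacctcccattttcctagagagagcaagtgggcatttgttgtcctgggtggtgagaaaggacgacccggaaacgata

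The Zfp36l1 window holds 1 of each, and the TATAAA and the reversed box share a base. The upstream window of Zfp367 holds 3 boxes and no TATAAA, and that of Zfp113 holds neither. Another window of Zfp367 holds no box. These 3 windows are examples and do not stand for all genes that rose or fell. Zfp639 and Zfp688, which rose, hold no box before the start, and Zfp280b, which fell, holds 2. The base composition of the probes varied with the result as it did in all genes. Probe GC content was 38.3% (median) for Zfp genes that were higher and 41.7% for those that were lower, against 40.0% and 45.0% among all genes. The Spearman correlation of GC content with the difference was -0.20 over the 187 genes and -0.31 over all genes, as a description across genes, which are not independent replicates.

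The partners of these proteins were also measured. Of 25 genes of the KRAB repression machinery, 20 passed the filter, 10 were higher and 5 lower (31.5% and 20.7% of all genes tested), with a median difference of 0.47, against -0.02 over all genes. Hdac1, Cbx3 and Mphosph8, a deacetylase and readers of silent chromatin, rose by 1.46, 1.09 and 1.79. Dnmt3a, a DNA methyltransferase, read -3.22, -3.21, -3.20, -3.24 and -3.08 in PBS-treated EVs, against 0.53, 0.52, -0.06 and -0.07 in control EVs. It was lower on every array, with a difference of -3.42 (limma, adjusted p = 2.15e-06). Chd3 fell by 1.87 and Atf7ip by 1.05, and Atf7ip turned to 0.22 with spike-in scaling.

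Of 28 deadenylation and decay partners of the Zfp36 family, 20 passed the filter, 8 were higher and 3 lower (31.5% and 20.7% of all genes tested), with a median of 0.65. Hnrnpd, an AU-rich element binding protein, and Cnot6l, a deadenylase, rose by 1.53 and 2.04, and Edc4, a decapping scaffold, by 1.11. Dcp1a, a decapping factor, Khsrp and Cnot10 were lower, at -1.88, -1.59 and -1.08. Cnot10 turned to 0.20 with spike-in scaling. Of 18 mRNAs with AU-rich elements that the family is known to bind, 11 passed the filter and all 11 were higher. Of these, 6 were detected on no control array and passed through the PBS-treated arrays alone, which favours a rise. The count therefore carries no weight. Ccl2 and Cxcl1 differed by 6.27 ± 0.13 and 7.29 ± 0.54 (SE). Il6 is among the 6, so its call carries no weight as support. It averaged -2.13 ± 0.09 in PBS-treated (SD, n = 5) and -7.04 ± 0.92 in control EVs (SD, n = 4), at least 10.9-fold higher.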

How the data were processed

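RNA of EVs from 5 PBS-treated and 4 control MEF samples was hybridised, 1 array each, to a 1-colour Agilent mouse design. The authors purified RNA with a miRNeasy kit, labelled it with cyanine 3 and quantified the scans with Agilent Feature Extraction, per the file headers. The deposited scanner files hold the processed, mean and background intensity of each spot. The deposited value table holds log2 values that rank probes as the mean signal does (Spearman 1.0), with a median of 5.97 on each array. No source used here states its centring, and it served as an alternative.

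Control and non-uniform spots (3 to 29 per array) were left out, no spot was saturated, and spots of a probe were averaged. Log2 of the processed intensity minus each array's 75th percentile, over 8422 probes well above background on all 9 arrays, was the response in limma 3.58.1, with two-sided moderated tests (eBayes after lmFit), under R 4.3.3. Each gene, by the name in the array design, took its probe with the highest mean among those above background on at least 4 arrays. Accessions of 179 of the 187 Zfp genes matched a RefSeq gene table (GRCm38.p6), which gives 9 of them another name. The number of arrays limits the precision. Where no array of a group was above background, "at least" divides the brighter group's mean by a floor: on each array, the dimmest probe above background, or this probe where it was brighter. Sensitivity was tested with other scalings, normexp (offset 50), the value table, other filters, probe means, array weights, a robust trend, slide and replicate blocks, the methods' t-test, and fits that left out an array. The test was checked on simulated data. The genes, gene lists and alternatives were chosen with earlier results of these data known. Named genes were the 10 largest rises and falls among calls with groups apart, detected genes of the role lists, genes at the edge of the rule, genes whose probes were called in opposite directions, and up to 3 partner genes of smallest p per list and direction. Figures were drawn with Python 3.11.15 and matplotlib 3.10.9.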

Additional observations from a re-analysis of the deposited data

Results flagged for a closer look

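Over the 68 Zfp genes named by rule, 136 groups of 4 or 5 arrays were searched for an array far from the rest of its group, and 14 were found. Chance alone gives about 1 in 20. Of the 14, 8 lie in PBS-treated replicate 3, which read lowest of its group in each. They are Zfp36l1 at -1.44 (the others -0.44 to -0.13), Zfp90 at -5.56 (-3.50 to -3.43), Zfp143 at -6.44 (-5.35 to -5.05), Zfp275 at -4.07 (-3.24 to -2.90), Zfp281 at -2.49 (-1.50 to -1.33), Zfp330 at -1.39 (-0.52 to -0.35), Zfp354c at -3.56 (-2.89 to -2.70) and Zfp644 at -3.50 (-3.42 to -3.39). PBS-treated replicate 4 read -5.62 for Zfp354a (the others -5.33 to -5.24), and PBS-treated replicate 5 read -6.53 for Zfp809 (-5.41 to -5.01). Among control arrays, replicate 4 read -5.50 for Zfp326 (-4.18 to -3.98) and -6.32 for Zfp688 (-4.58 to -4.52), replicate 3 read -5.51 for Zfp644 (-3.88 to -3.58), and replicate 2 read -7.77 for Zfp868 (-6.08 to -6.06).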

How the results depend on the processing

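On the main scale 47 Zfp genes were called higher and 54 lower, and 17 and 35 of the 73 seen on all arrays. Of the partner lists, with 20, 20 and 11 genes tested, 29 genes were called higher and 8 lower. Among all genes tested, 31.5% were higher and 20.7% lower. The 29 include the 11 mRNAs with AU-rich elements, 6 of them detected on no control array, so this count carries no weight. For the Zfp genes, the higher count became 120 with spike-in scaling, 9 and 29 with normexp followed by the main percentile and by quantiles, 29 with no filter on dim probes, 18 with probes on all 9 arrays and 72 with array weights. The lower count became 18 with the 75th percentile over all probes, 11 with spike-in scaling, 96 and 32 with normexp and, in the value table, 32. For the 73 genes, the higher count became 6 with the percentile over all probes, 36 with spike-in scaling, 5 and 9 with normexp, 10 in the value table and 6 with no filter, and the lower count 12 with the percentile over all probes and 7 with spike-in scaling. For the partner lists, the higher count became 17 with normexp and the main percentile and 12 with probes on all 9 arrays, and the lower count 4 with the percentile over all probes and 3 with spike-in scaling. Fewer genes are tested with probes on all 9 arrays, and the other causes were not tested. Without each array in turn, the counts were 42 to 51 higher and 51 to 57 lower, 13 to 18 and 35 to 37 for the 73 genes, and 28 to 30 and 8 to 9 for the partner lists. All 101 calls were kept with the slide as a block, and 39 of the 47 and 49 of the 54 without each array in turn. Arrays numbered 1, 2 and 4 share a slide between the groups (correlations of deviations 0.70, 0.73 and 0.74) and those numbered 3 do not (-0.54), so the numbers were not taken as pairs. A replicate block gave 44 higher and 53 lower and turned Zfp503 to 0.03.

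Of 83 genes named, the sign turned in these cases. With normexp and the main percentile, the values became -0.28 for Zfp26 and Zfp868, -0.30 for Zfp90, -0.08 for Zfp110, -0.60 for Zfp143, Zfp354c and Zfp809, -0.68 for Zfp160, -0.48 for Zfp277 and Zfp280d, -0.22 for Zfp280c, -0.15 for Zfp326, -0.16 for Zfp330, -0.66 for Zfp354a, -0.37 for Zfp410, -0.56 for Zfp451, -0.31 for Zfp644 and -0.57 for Zfp830. With spike-in scaling they became 0.61 for Zfp30, 0.02 for Zfp106 and Zfp457, 0.95 for Zfp128, 1.23 for Zfp148 and Zfp503, 1.20 for Zfp161, 0.29 for Zfp219, 0.44 for Zfp238, 0.67 for Zfp335, 0.81 for Zfp395, 0.85 for Zfp445, 0.32 for Zfp462, 1.13 for Zfp467, 0.71 for Zfp521, 0.65 for Zfp622, 0.12 for Zfp687, 0.22 for Atf7ip and 0.20 for Cnot10. With the percentile over all probes they became 0.08 for Zfp128, 0.35 for Zfp148, 0.33 for Zfp161, 0.25 for Zfp467 and 0.36 for Zfp503. With normexp and quantiles they became 0.01 for Zfp128, Zfp467 and Zfp503, 0.09 for Zfp161, 0.03 for Zfp219, -0.02 for Zfp330 and Zfp354c and 0.06 for Zfp335. In the value table they were 0.05 for Zfp128, 0.11 for Zfp161, 0.02 for Zfp219, -0.03 for Zfp330, -0.04 for Zfp354c, 0.01 for Zfp395, 0.0 for Zfp445 and 0.03 for Zfp503. As a mean over probes they were 0.09 for Zfp148, 0.15 for Zfp457, 0.29 for Zfp467 and 0.45 for Zfp503. With array weights they were -0.04 for Zfp277, -1.23 for Zfp354c, 0.19 for Zfp467 and 0.03 for Zfp503. Slide 1 alone gave -0.04 for Zfp277, -0.23 for Zfp330, -1.13 for Zfp354c, 0.21 for Zfp467 and 0.08 for Zfp503, and slide 2 alone 0.21 for Zfp148, -0.34 for Zfp160, 0.06 for Zfp161, 0.58 for Zfp219 and -0.67 for Zfp830. Without control replicates 3 and 4 the values were -0.08 for Zfp330, -1.05 for Zfp354c and 0.63 for Zfp467, and the calls of Zfp281, Zfp352, Zfp369, Zfp609, Zfp622 and Khsrp were lost. Without each array in turn, Zfp148 ran between -0.22 and 0.10, Zfp161 between -0.28 and 0.06, Zfp354c between -0.26 and 1.08, Zfp467 between -0.42 and 0.13, Zfp503 between -0.12 and 0.03 and Zfp830 between -0.22 and 0.52. In all, 1919 of 2193 comparisons of a named gene with an alternative kept direction and side of the threshold. Signal close to background limits the genes seen on few arrays.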
